A study of Homo sapiens with 12 samples.

Results

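The long non-coding RNA (lncRNA) that HepG2 cells express were compared by how many ribosome footprints they carried, and by how their RNA and footprints changed after knockdown of IGF2BP3. HepG2 is a line derived from a human liver cancer. The members were chosen by annotation and by level: genes of GENCODE type lncRNA with a mean of at least 5 CPM (counts scaled to a common library total) over the siControl Input libraries, leaving out H19, GAS5, ZFAS1, EPB41L4A-AS1, DANCR, CYTOR, TP53TG1 and the SNHG genes, many of which host small nucleolar RNA. Of 14734 lncRNA genes in the data, 376 reached that level, 22 of them were left out by name, and 354 members remained out of 58721 genes in all. Members were then split by the siControl ratio of RPF CPM to Input CPM, where RPF are the ribosome-protected fragments. The ratio was under 0.1 in 126 members, from 0.1 to 0.5 in 143 and above 0.5 in 85. These 2 measures chose the members and their classes, so siControl levels and ratios are given as a description without a test.

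Each group held 3 libraries: siControl Input, siControl RPF, siIGF2BP3 Input and siIGF2BP3 RPF. siIGF2BP3 cells were collected 2 days after a transient siRNA knockdown of IGF2BP3, an RNA-binding protein, and siControl cells received a control knockdown. All cells were treated with cycloheximide at 100 µg/mL for 4 min, which holds ribosomes on RNA, and fragments of 28 to 30 nt left after RNase I digestion were sequenced as RPF. Total counts ranged from 11219750 to 14797573 in the Input libraries and from 13036423 to 31510601 in the RPF libraries. IGF2BP3 itself fell by 0.39 ± 0.05 (log2 fold change, SE) in Input (edgeR adjusted p = 1.1e-05) and by 1.59 ± 0.08 in RPF (edgeR adjusted p = 0.00030). The 8 hepatocyte markers summed to 47410 to 48714 CPM in the siControl Input libraries and to 44030 to 44518 CPM in the siIGF2BP3 Input libraries. ALB, AFP, APOA1 and TF were each lower in all 3 of the latter than in all 3 of the former. The values of APOB, TTR, FGB and HNF4A overlapped between the groups. Fibroblast, endothelial and leukocyte markers summed to at most 9.38, 2.94 and 3.18 CPM, with PTPRC, CD3E and DCN at 0 in all 6 Input libraries. siControl RPF replicates 2 and 3 differed by less than the sampling noise (mean chi-square 0.941 per gene) and were counted as 1 sample in means and SD (n = 2). Replicate 1 of siControl RPF gave 2.80 against replicate 2 and 2.09 against replicate 3. Over the members alone these values were 0.883, 1.17 and 0.870 in the same order. The fits took replicates 2 and 3 as separate libraries, so p-values treat them as independent, except in 1 alternative that summed them. siIGF2BP3 RPF replicate 1 stood apart from replicates 2 and 3 (mean chi-square 19.9 and 21.6, against 1.15 between those), so RPF results are given with and without it.

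An lncRNA is a transcript that is not annotated with a protein. Many stay in the nucleus, where ribosomes do not work, and act there as scaffolds or in gene silencing. Others reach the cytoplasm, where ribosomes can bind short open reading frames in them. A footprint count therefore reports at most ribosome occupancy and not a stable protein. Whether the fragments counted here came from ribosomes was not tested. Where an lncRNA shares exons with a protein-coding gene, short fragments of the mRNA can also be assigned to it.

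The following 30-base windows show the start of the longest ATG-started frame in members with many and few footprints, with the ATG in capitals. The first 3 belong to members above 0.5 whose frame began at the annotated start codon of a protein-coding gene, namely EIF4A1, PCBP2 and SULT1A3. The fourth belongs to the member with the highest ratio, which lies outside coding genes, and the last 2 to abundant members under 0.1.
ENSG00000264772: ctaaggatcATGtctgcgagccaggattcc
ENSG00000257379: ctgctcgacATGgacaccggtgtgattgaa
SLX1A-SULT1A3: aagaggaacATGgagctgatccaggacacc
ARHGAP27P1-BPTFP1-KPNA2P3: agggtgccaATGacctccccgcgaacggga
NEAT1: tgaatgtagATGtttggcagcagctactcc
NORAD: cggtgactaATGgcggccgtggcgtctccc
In hg38 these lie at chr17:7572833-7572862 (plus strand), chr12:53454792-53454821 (plus), chr16:30197353-30200749 (plus, across an intron), chr17:64780810-64780839 (minus), chr11:65430150-65430179 (plus) and chr20:36050698-36050727 (minus). The frames held 377, 301, 295, 199, 137 and 108 codons, and the siControl ratios were 1.24, 0.536, 2.40, 8.38, 0.00254 and 0.0283 in the same order. NEAT1 and NORAD, with few footprints, thus also hold frames of over 100 codons, and that of NEAT1 filled a small part of its 22743-base transcript.

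Whole frames are shown for one member from each end of the range, with start and stop codon in capitals. LINC03037, outside coding genes on chr2, had the highest ratio (2.64) among such members with a frame of at most 300 bases, and MALAT1 had the highest Input level.
LINC03037: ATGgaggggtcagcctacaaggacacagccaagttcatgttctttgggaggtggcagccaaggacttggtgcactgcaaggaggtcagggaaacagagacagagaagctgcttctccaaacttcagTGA
MALAT1: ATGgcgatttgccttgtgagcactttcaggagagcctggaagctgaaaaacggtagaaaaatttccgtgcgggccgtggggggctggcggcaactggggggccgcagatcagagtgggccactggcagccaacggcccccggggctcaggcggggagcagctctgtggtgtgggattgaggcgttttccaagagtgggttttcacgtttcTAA
The frame of LINC03037 held 42 codons at chr2:11357970-11365159 (minus strand, across an intron), and that of MALAT1 held 70 codons at chr11:65498257-65498469 (plus strand, in 1 exon) of a 10434-base transcript.

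Expressed lncRNA carried fewer footprints for their RNA than protein-coding genes did. The median siControl ratio was 0.206 over the 354 members and 0.850 over the 10128 protein-coding genes with at least 5 CPM. Only 260 of these coding genes (2.57%) were under 0.1, against 35.6% of the lncRNA, whereas 70.7% of coding genes and 24.0% of lncRNA were above 0.5. Among the lncRNA under 0.1, 11 had no count in any siControl RPF library, which allows up to 0.0404 CPM over the 3 libraries together, and 35 had under 3 counts there. For 4 members no count was found in any of the 6 RPF libraries. This floor covers counting error only.

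**Figure D1:**
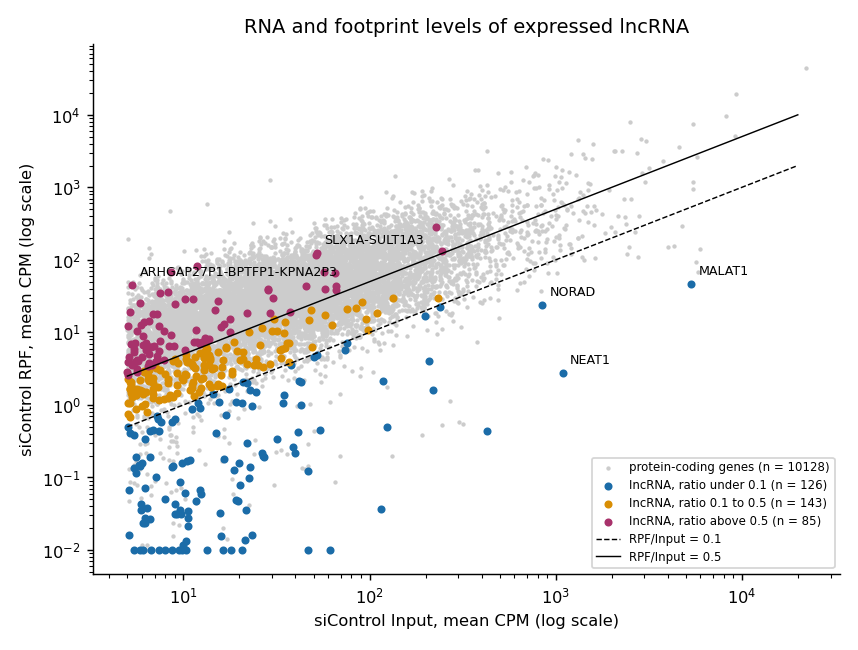
Mean siControl Input CPM (x) against mean siControl RPF CPM (y), both on log scales, for protein-coding genes (grey) and the 354 lncRNA, coloured by ratio class. Lines mark ratios of 0.1 and 0.5, values under 0.01 CPM are drawn at 0.01, and MALAT1 and NEAT1 sit far under the cloud of coding genes.

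The 4 members with the highest siControl Input CPM were in the class under 0.1. MALAT1 (chr11:65497688-65506516, plus strand, outside coding genes), a nuclear speckle RNA, had siControl Input levels of 5423, 5330 and 5337 CPM and siControl RPF levels of 42.7, 51.3 and 46.9 CPM. NEAT1 (chr11:65422774-65445540, plus strand), the scaffold of nuclear paraspeckles, had Input levels of 1218, 984 and 1075 CPM against 2.44, 3.64 and 2.56 CPM in RPF. Both RNA were thus at a ratio under 0.01. NORAD, a cytoplasmic RNA that binds Pumilio proteins, reached 870, 808 and 868 CPM of Input and 23.8, 25.8 and 22.8 CPM of RPF, a ratio of 0.0283. OIP5-AS1, which is also found in the cytoplasm, had a ratio of 0.0194, and FGD5-AS1 had one of 0.0832. KCNQ1OT1, the antisense RNA of the imprinted KCNQ1 domain, had a ratio of 0.0073. Per kb of exon, siControl Input levels were 607 CPM for MALAT1, 159 for NORAD, 48.0 for NEAT1 and 2.38 for KCNQ1OT1, whose annotated exon spans 91667 bases.

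Members with few footprints could also share exon bases with a protein-coding gene. ENSG00000240801 shared 100% of its exon bases with IGF2, which encodes a growth factor, but none with a coding sequence. It had 441, 419 and 423 CPM in siControl Input and 0.399, 0.406 and 0.531 CPM in RPF. The reads of the coding gene and of the lncRNA cannot be told apart there.

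The members from 0.1 to 0.5 were led by CASC19 (ratio 0.126), HAGLR in the HOXD cluster (0.221), ENSG00000279738 (0.171), MAGI2-AS3 (0.108), ENSG00000271853 (0.161), LINC00261 (0.285), ENSG00000285565 (0.257) and EBLN3P (0.278). LINC00261, a lncRNA of endoderm and liver, had 95.8, 88.5 and 90.7 CPM in siControl Input, and its siControl RPF level was at most 27.1 CPM. At the edges of the class, ENSG00000251095 (0.0997) was the last member under 0.1 and NPSR1-AS1 (0.105) the first above it. GTF3C2-AS2 (0.495) and DUXAP8 (0.505) lay on either side of 0.5. NOP14-AS1 entered with 5.00 CPM, while ENSG00000272941 missed the level with 4.98 CPM.

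The 8 members above 0.5 with the most Input RNA all shared exon bases with a protein-coding gene on the same strand. ENSG00000264772, which covers exons of EIF4A1, an RNA helicase of translation initiation, had 223, 232 and 232 CPM in siControl Input and 279, 287 and 290 CPM in RPF. ENSG00000257379 covers PCBP2 exons and had a ratio of 0.536. The others were ENSG00000285851, ENSG00000256028, ENSG00000265257, ENSG00000263798, ENSG00000267009 and SLX1A-SULT1A3. SLX1A-SULT1A3 has a near-identical copy, SLX1B-SULT1A4, so the reads of that pair may be split between them. The 2 members with a RefSeq protein, CRYZL2P-SEC16B and ARMCX5-GPRASP2, both read-through transcripts, were also in this class, with ratios of 1.29 and 0.510. Only 199 of the 354 members matched RefSeq by symbol, too few to use this as a comparison between classes.

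Position relative to coding genes is given by class as a description. Exon bases were shared with a coding gene on the same strand by 42 of 85 members above 0.5, 24 of 143 from 0.1 to 0.5 and 34 of 126 under 0.1. Bases of an annotated coding sequence were shared by 39, 18 and 10 of these. The longest frame started at an annotated coding start codon in 15 members above 0.5, among them ENSG00000256100 (COX8A), ENSG00000284707 (ASNS) and DNAAF4-CCPG1 (CCPG1), in 3 members from 0.1 to 0.5, and in none under 0.1. The median ratio was 0.661 in siControl and 0.583 in siIGF2BP3 over the 67 members with coding sequence bases. It was 0.161 and 0.165 over the other 287. Members in an intron of a coding gene on the same strand had a median ratio of 0.00492, and 14 of these 16 were under 0.1.

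**Figure D2:**
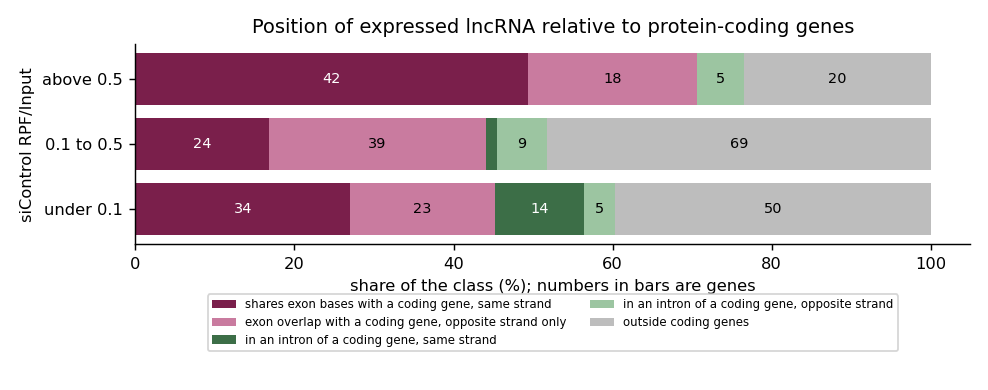
Share of each ratio class (x, in %) by position relative to protein-coding genes, with the number of genes in each bar segment. Gene types are those of GENCODE 44, and exon positions are those deposited with the counts. Of the members above 0.5, 42 shared exon bases with a coding gene on the same strand and 20 lay outside coding genes.

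Members above 0.5 outside coding genes were few. Of the 20, ARHGAP27P1-BPTFP1-KPNA2P3, a read-through of pseudogenes, had 4.65, 4.35 and 6.96 CPM in siControl Input and 45.5, 42.7 and 44.6 CPM in RPF. LINC03037 had 7.99, 5.58 and 7.10 CPM in Input and 17.8, 18.7 and 18.4 CPM in RPF. The RPF values were above the Input values in all siControl libraries for both. Pseudogene transcripts such as this read-through, DUXAP8, ANAPC1P2 and PDXDC2P-NPIPB14P resemble their parent genes, so reads of the parents can be assigned to them. Among members that overlap a coding gene only on the opposite strand, HULC, a lncRNA raised in liver cancer, had 7.43, 8.18 and 6.47 CPM in Input and 5.62, 5.77 and 5.06 CPM in RPF. The strand setting of the counting is not given in the sources used here, so reads of the opposite gene cannot be told apart where exons overlap.

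Features of the transcript sequence are given in the same way. The longest frame had a median of 93 codons above 0.5, 87 from 0.1 to 0.5 and 79 under 0.1, and it covered a median of 14.9% of the transcript from 0.1 to 0.5 and 12.4% under 0.1. Median GC content was 50.7%, 47.9% and 42.9%, and the median number of exon blocks was 6, 5 and 2. Of the members under 0.1, 56 had a single exon block, against 7 of those above 0.5. A purine 3 bases before the ATG with a G right after it, the main features of the Kozak context, was found in 23 of 85, 23 of 143 and 21 of 126 members, against 16.5% of 14618 lncRNA transcripts with a frame. The frame and context values include frames that started at an annotated coding start codon, in 15, 3 and 0 members in the same order. An annotated small RNA gene lay in an exon of 3, 9 and 7 members.

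The ratio was then tested in the siIGF2BP3 libraries, which did not enter the choice of members or classes. RPF was lower than Input, relative to library totals, for 307 of 354 members and higher for 30 (edgeR adjusted p threshold 0.05). Over all 19744 genes tested, 38% were lower and 50.8% higher. Members had to reach 5 CPM in siControl Input, whereas a gene could be tested on its RPF counts alone, so these sets are unlike. In siIGF2BP3 the median ratio was 0.195 over the members and 0.809 over the 10128 protein-coding genes with at least 5 CPM in siControl Input. All 126 members under 0.1 and all 143 from 0.1 to 0.5 were lower. The same ratio in siControl had set these classes, so the outcome by class largely restates that cut and is a description. Of the 85 above 0.5, 38 were lower, 30 higher and the rest did not pass the test. The log2 difference of RPF from Input was -6.57 ± 0.14 for MALAT1, -8.26 ± 0.11 for NEAT1 and -4.81 ± 0.20 for NORAD (SE, edgeR adjusted p = 2.7e-11, 5.9e-14 and 1.3e-07). It was 1.29 ± 0.07 for SLX1A-SULT1A3, 2.48 ± 0.14 for ARHGAP27P1-BPTFP1-KPNA2P3 and 1.04 ± 0.15 for LINC03037 (edgeR adjusted p = 3.9e-09, 3.1e-09 and 2.3e-05). Of the 30 higher members, 21 shared exon bases with a coding gene on the same strand, 6 overlapped one on the opposite strand only, and 3 lay outside coding genes, namely ARHGAP27P1-BPTFP1-KPNA2P3, LINC03037 and EMSLR. For HULC the difference was -0.33 ± 0.18 (edgeR adjusted p = 0.098).

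The classes held across the knockdown for most members. In siIGF2BP3, 335 of 354 members were in their siControl class, with 138 of 143 again from 0.1 to 0.5 and 74 of 85 above 0.5, and 3 of 126 no longer under 0.1. The 11 that left the highest class all moved to the middle one, and DUXAP8 went from 0.505 to 0.441. PURPL moved from 0.124 to 0.0935 and JPX from 0.0947 to 0.115.

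**Figure D3:**
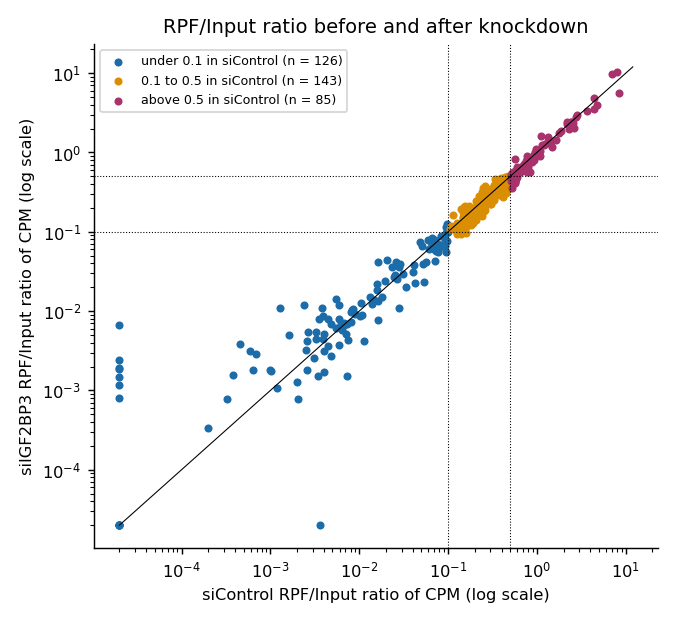
RPF/Input ratio of CPM in siControl (x) against siIGF2BP3 (y) for the 354 members, both on log scales, with dotted lines at 0.1 and 0.5 and a line of equal ratios. Values under 2e-05, zeros included, are drawn at 2e-05; 335 members stayed in their siControl class.

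After IGF2BP3 knockdown, more expressed lncRNA rose than fell in RNA, and most of those that rose were in the class under 0.1. Of 354 members, all of which were tested, 29 rose and 3 fell (edgeR adjusted p threshold 0.05). This is 8.19% and 0.847% of the members, whereas 4.05% of the 14759 genes tested rose and 1.9% fell. Members had to reach 5 CPM in siControl Input, whereas genes under that level were tested too, so these sets are unlike. By class, 19 of 126 members under 0.1, 8 of 143 from 0.1 to 0.5 and 2 of 85 above 0.5 rose. The class counts of falls were 0, 2 and 1, and under 0.1 a lower level at an unadjusted p under 0.05 was found for 3 members by edgeR and an adjusted call for 1 by DESeq2. The median log2 fold change was 0.090, 0.0051 and -0.022 in the 3 classes, against 0.0023 over all genes tested. Whether the classes differ was not tested, since siControl Input values set both the ratio and the change.

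Some of the rises were in lncRNA known to stay in the nucleus. NEAT1 went from 1218, 984 and 1075 CPM to 1531, 1690 and 1560 CPM, a log2 fold change of 0.50 ± 0.06 (SE, edgeR adjusted p = 7.0e-06). MALAT1 went from values between 5330 and 5423 CPM to 7340, 6697 and 5752 CPM, with 0.25 ± 0.06 (edgeR adjusted p = 0.016). All 3 knockdown libraries lay above all siControl libraries for both RNA. PVT1, the neighbour of MYC, rose from 17.5, 16.8 and 18.8 CPM to 24.4, 25.5 and 26.4 CPM, with 0.48 ± 0.09 (edgeR adjusted p = 0.0011). KCNQ1OT1 rose by 0.20 ± 0.06 (edgeR adjusted p = 0.035), but 1 of its knockdown libraries (231 CPM) lay under the highest siControl library (235 CPM). KCNQ1OT1 did not pass in 4 of 10 alternative fits (highest adjusted p 0.19), namely without siControl Input replicate 2 or 3 or siIGF2BP3 Input replicate 1 or 2, and MALAT1 did not pass in 5 of 10. Of the 12 nuclear-retained lncRNA listed, 8 were members, and these 4 rose, where 4.05% of all genes did, while none fell, with 0 lower at an unadjusted p under 0.05 and 0 fallen by DESeq2. FTX and JPX of the X-inactivation centre, FIRRE and LINC-PINT had log2 fold changes of 0.18, -0.03, 0.23 and 0.41 that did not pass the test. The median over the 8 was 0.24. This list and those below were chosen with earlier results of these data known, so their counts are a description.

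**Figure D4:**
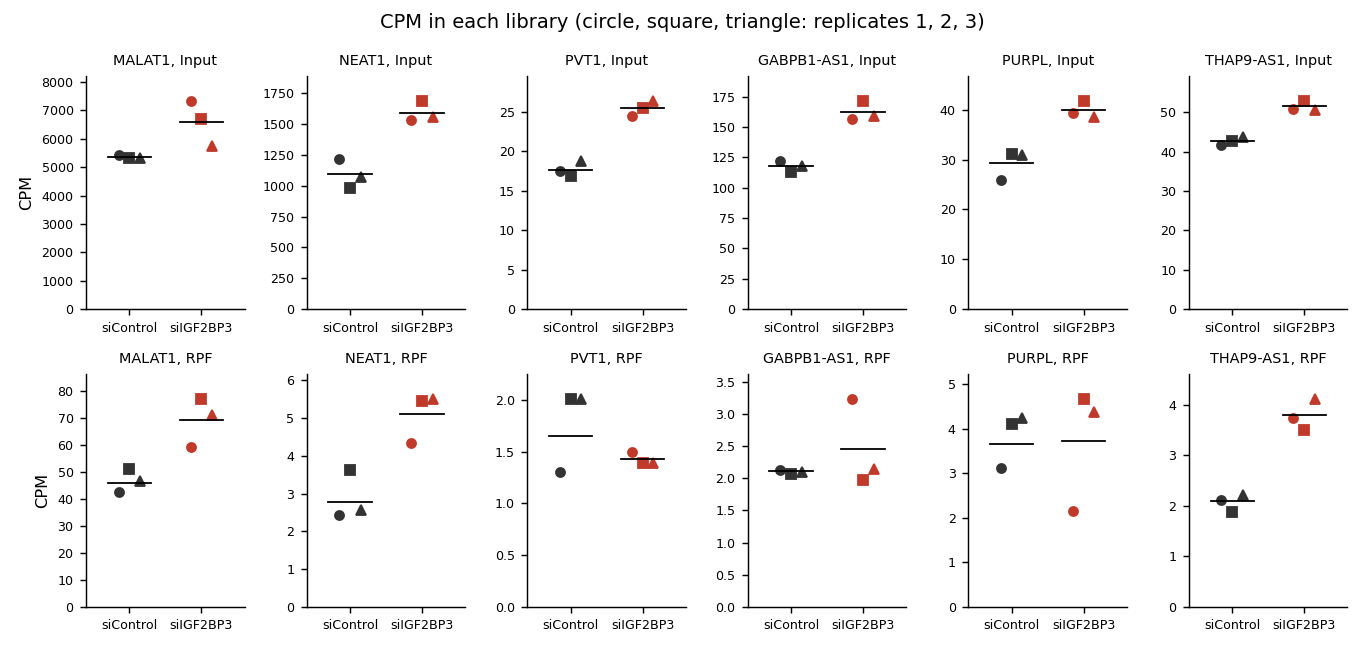
CPM (y, from 0) in each siControl and siIGF2BP3 library for 6 members, Input above and RPF below, with lines at the group means. For all 6, the 3 siIGF2BP3 Input libraries lie above the 3 siControl Input libraries, whereas the RPF values of PVT1, GABPB1-AS1 and PURPL overlap between the groups.

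Of 9 lncRNA listed as induced by p53, 5 were members, and all 5 had RNA fold changes above 0 on the log2 scale, as did 7454 of the 14759 genes tested. PURPL (chr5:27472292-27496401, plus strand), a p53-induced lncRNA, rose from 25.8, 31.1 and 30.9 CPM to 39.4, 41.8 and 38.5 CPM (0.40 ± 0.08, edgeR adjusted p = 0.0026). With NEAT1 and PVT1, 3 of the 5 rose, where 4.05% of all genes did. Since the list was chosen with earlier results known, this count does not measure an excess. LINC-PINT had 0.41 ± 0.16 (edgeR adjusted p = 0.12) and MIR34AHG, the host of miR-34a, 0.20 ± 0.10 (edgeR adjusted p = 0.26). The median over the 5 was 0.41, but NEAT1, PVT1 and LINC-PINT also belong to the nuclear-retained list. No cytoplasmic lncRNA of the list was called: NORAD, OIP5-AS1 and HULC had log2 fold changes of -0.08, -0.01 and -0.02, and none had an unadjusted p under 0.05 by edgeR or a call by DESeq2.

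Among the other lists, PVT1 was the 1 of 9 microRNA hosts and the 1 of 3 liver lncRNA that rose in RNA. Of the 2 members with a reported peptide, LINC00467 had -0.31 ± 0.15 (edgeR adjusted p = 0.23) and the other was LINC-PINT. Of 103 members named as antisense or divergent transcripts, 5 rose and 0 fell by edgeR, with 8 lower at an unadjusted p under 0.05 and 0 fallen by DESeq2, and their median was -0.0097. The share that rose was near the 4.05% of all genes. GABPB1-AS1, antisense to the transcription factor subunit gene GABPB1, rose from 122, 113 and 118 CPM to 157, 172 and 159 CPM (0.42 ± 0.05, edgeR adjusted p = 7.7e-06). GABPB1 itself had -0.09 (edgeR adjusted p = 0.63).

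Of the 6 largest rises, all but that of ENSG00000285565 were in members under 0.1 with siControl Input levels of at most 10.7 CPM. ENSG00000264112 (chr17:57989039-57994850, minus strand) rose from 10.7, 10.1 and 9.73 CPM to 19.1, 17.1 and 13.9 CPM (0.66 ± 0.12, edgeR adjusted p = 0.00088). Its locus lies within that of the protein-coding gene ENSG00000266086 on the same strand. That gene had 187 CPM in siControl Input and rose by 0.18 ± 0.05 (edgeR adjusted p = 0.019). The part of its reads in the rise of the lncRNA was not tested. ENSG00000241886, in an intron of a coding gene, rose by 0.57, MAFA-AS1 by 0.54, ENSG00000278464 by 0.51 and APRG1 by 0.51 on the log2 scale. In each the 3 knockdown libraries lay above the 3 siControl libraries. MAFA-AS1 and ENSG00000241886 had 0 CPM in all 6 RPF libraries, which allows up to 0.0219 CPM over these together.

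Several changes ran beside those of a gene that shares exons with the lncRNA. ENSG00000285565 rose by 0.59 ± 0.07 (edgeR adjusted p = 9.1e-06), and HSPA1B, the heat shock gene whose exons hold 68.8% of its exon bases, by 0.69 ± 0.08 (edgeR adjusted p = 5.1e-05). ENSG00000259970 rose by 0.42 and MST1, which shares 83.5% of its exon bases, by 0.41 ± 0.05 (edgeR adjusted p = 7.0e-06). All 3 members that fell shared exon bases with a coding gene: ENSG00000279738 with EIF3L, ENSG00000271853 with S100A13, and ENSG00000267009 with PRKAR1A and ARSG. They fell by 0.21, 0.21 and 0.23 on the log2 scale, and EIF3L by 0.19, PRKAR1A by 0.15 (edgeR adjusted p = 0.016 and 0.042), while S100A13 had -0.15 (edgeR adjusted p = 0.088) and ARSG -0.036 (edgeR adjusted p = 0.94). The part of shared reads in these changes was not tested. Among the 174 members without overlap with a coding exon on either strand, 17 rose and 0 fell by edgeR, with 8 lower at an unadjusted p under 0.05 and 0 fallen by DESeq2.

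The RNA counts depended on the libraries. Without siIGF2BP3 Input replicate 3, 17 members rose, and falls numbered 6, 1 and 0 without siControl Input replicates 1, 2 and 3. Of the 32 calls, 13 passed under every alternative fit in which they had an adjusted p, among them NEAT1, PVT1, GABPB1-AS1, PURPL and ENSG00000264112, whereas MALAT1 did not pass by DESeq2, without siIGF2BP3 Input replicate 1 or without any 1 siControl Input library (largest adjusted p 0.34).

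Summed over the class, members under 0.1 took 10721 to 11267 CPM of the siControl Input libraries and 12139 to 13728 CPM of the siIGF2BP3 Input libraries. Without MALAT1 and NEAT1 the sums were 4408 to 4626 and 4774 to 4857 CPM, again without overlap. The members from 0.1 to 0.5 summed to 2914 to 2929 CPM and then 3081 to 3135 CPM. Those above 0.5 summed to 1653 to 1710 CPM and 1695 to 1708 CPM, which overlap. The sum of the hepatocyte markers moved the other way in the same libraries, and its part in these shifts of CPM was not tested. In bulk samples, more RNA per cell and more cells of a kind cannot be told apart, and CPM are relative to the other RNA of a library.

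**Figure D5:**
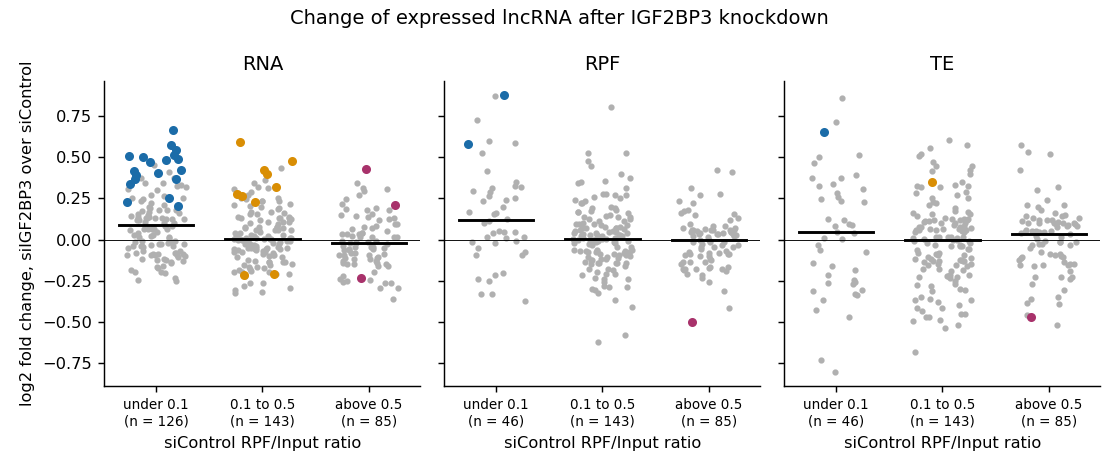
Log2 fold change of siIGF2BP3 over siControl (y) for each tested member by siControl ratio class (x), in RNA, RPF and translation efficiency (TE). Coloured points passed the test, grey points did not, and lines mark medians; coloured points lie mostly above 0 for RNA in the class under 0.1.

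Few members changed in footprints. Of 274 members tested in RPF, 46 of them under 0.1, 2 rose and 1 fell (edgeR adjusted p threshold 0.05), which is near the 1.66% called among 20192 genes. The 80 members not tested had too few RPF counts, so nothing is said of their footprints. THAP9-AS1, divergent to THAP9, went from 2.12, 1.88 and 2.23 CPM to 3.75, 3.51 and 4.13 CPM in RPF (0.88 ± 0.11, edgeR adjusted p = 0.016). MALAT1 went from 42.7, 51.3 and 46.9 CPM to 59.3, 77.3 and 71.2 CPM (0.58 ± 0.10, edgeR adjusted p = 0.037). The groups did not overlap for either. NEAT1 moved from 2.44, 3.64 and 2.56 CPM to 4.33, 5.45 and 5.52 CPM, and its change of 0.87 ± 0.17 did not pass (edgeR adjusted p = 0.052). ENSG00000259827, which shares 58.3% of its exon bases with the metallothionein gene MT1X, fell by 0.50 ± 0.08 (edgeR adjusted p = 0.034), and MT1X by 0.50 ± 0.05 (edgeR adjusted p = 0.0079).

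By edgeR, 0 members were called in RPF without any 1 siControl RPF library, without siIGF2BP3 RPF replicate 2 or 3, or with siControl RPF replicates 2 and 3 summed. With all libraries, 26 had an unadjusted p under 0.05, and DESeq2 called 5. Without siIGF2BP3 RPF replicate 1, 13 members rose and 8 fell, with 16.5% of all genes called. That fit kept siControl RPF replicates 2 and 3 as separate libraries and was not repeated with them summed. Its adjusted p-values may therefore be too small. NEAT1 then passed with 0.95 ± 0.14 (edgeR adjusted p = 0.0012), and MIR34AHG with 0.87 ± 0.15 (edgeR adjusted p = 0.0034), beside MALAT1 (0.67) and THAP9-AS1 (0.87). The siControl RPF values, which were used to set the classes, enter every sum and median of RPF by class, so these are a description only. Summed RPF of the class under 0.1 were 181 to 195 CPM in siControl and 222 to 230 CPM in siIGF2BP3, and 134 to 140 and 145 to 160 CPM without MALAT1 and NEAT1. The other 2 classes overlapped between the groups, at 680 to 693 and 675 to 706 CPM from 0.1 to 0.5 and at 1975 to 1992 and 1960 to 1987 CPM above 0.5. Median log2 fold changes in RPF over the members tested were 0.12, 0.0052 and -0.0027 in the order of the classes, against 0.0086 over all genes. With the classes cut on the siIGF2BP3 ratio instead, the median under 0.1 was 0.060.

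TE is the level of RPF relative to Input, tested as the difference of both changes. Of 274 members tested, 2 had higher and 1 lower TE, against 2.21% called in either direction among 13395 genes. THAP9-AS1 was higher by 0.65 ± 0.14 (edgeR adjusted p = 0.020). It shares 11.0% of its exon bases with SEC31A, whose change in RPF was 0.04 (edgeR adjusted p = 0.85). THAP9, on the opposite strand, had an RPF change of 0.25 (edgeR adjusted p = 0.27), and its siIGF2BP3 RPF libraries all lay above the siControl ones. The part of reads from either gene was not tested. ENSG00000279738 was higher by 0.35 ± 0.09 (edgeR adjusted p = 0.044), with its RNA lower and its RPF at 0.14 (edgeR adjusted p = 0.34). PDXDC2P-NPIPB14P was lower by 0.47 ± 0.12 (edgeR adjusted p = 0.041). Its Input rose from 21.8, 21.9 and 22.6 CPM to 32.8, 27.0 and 32.8 CPM, while its RPF went from 18.7, 18.5 and 18.0 CPM to 15.8, 18.5 and 18.4 CPM. MALAT1 and NEAT1 had TE changes of 0.34 and 0.39 that did not pass (edgeR adjusted p = 0.24 and 0.31), and PVT1 had -0.73 ± 0.22 (edgeR adjusted p = 0.085). The median TE change over the 46, 143 and 85 members tested was 0.044, -0.0027 and 0.034. Taken for each siIGF2BP3 replicate against the siControl mean, with CPM by library totals and 0.1 CPM added, it ran from -0.099 to 0.019 under 0.1 and from -0.13 to 0.012 above 0.5, so its sign was not settled.

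The TE calls moved with the fit and with single libraries. There were 0 with the replicate number as a block, 1 without the filter on low counts, and 1 after siControl RPF replicates 2 and 3 had been summed. By edgeR their number was 0 without siControl RPF replicate 2, 2 without siIGF2BP3 Input replicate 2, 3 without siIGF2BP3 RPF replicate 3, and 1 without each other library except siIGF2BP3 RPF replicate 1. With all libraries, 34 members had an unadjusted p under 0.05, and DESeq2 called 4. Without siIGF2BP3 RPF replicate 1, 9 members were higher and 8 lower, with 9.99% of all genes called. This fit also kept siControl RPF replicates 2 and 3 separate, so its adjusted p-values may be too small. PVT1 then had -0.76 ± 0.23 (edgeR adjusted p = 0.034) and MIR34AHG 0.68 ± 0.20 (edgeR adjusted p = 0.033), and THAP9-AS1 (0.65), PDXDC2P-NPIPB14P (-0.42) and ENSG00000279738 (0.38) passed as well. The labels do not say that replicates came from separate cultures, so p-values measure the spread between these libraries, which may be technical.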

How the data were processed

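Input and RPF libraries of HepG2 cells were sequenced in 12 samples. The submitters' processing notes name Cutadapt, STAR and featureCounts and the hg38 build; versions, strand setting and the treatment of shared reads are not given in the sources used here. The deposited values are estimated counts, not all whole, which were rounded (at most 0.0445% of a library total). Total counts are given above; precision for members under 0.1 in RPF is limited by few counts.

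The members and gene lists were chosen with earlier results of these data known. Gene types, coding sequences, start codons and transcripts came from GENCODE 44 (58207 of 58721 identifiers matched). Loci, exon positions, exon lengths and exon overlaps came from the coordinates deposited with the counts. The annotation release of those coordinates is not given in the sources used here, and they can differ from the GENCODE 44 transcripts. CPM used library totals. Changes were tested over all genes with edgeR 4.0.16 (robust quasi-likelihood, filterByExpr, TMM factors within an assay, Benjamini-Hochberg) in R 4.3.3; TE was the assay by knockdown interaction. RPF against Input in siIGF2BP3 used library totals. Fits were tested on simulated data. Alternatives were DESeq2 1.42.0, RLE factors, no filter, a replicate block, each library left out, summed siControl RPF replicates and members without coding exon overlap. Sequences and frames were read from the canonical GENCODE transcripts; a frame runs from ATG to the first stop. Named members were, by a set rule, the 8 with the highest siControl Input CPM per class, the 6 largest called rises and falls per comparison, list members, those at the class limits and those with a RefSeq protein; GABPB1-AS1, ARHGAP27P1-BPTFP1-KPNA2P3, LINC03037, ENSG00000259970, EMSLR, RPF-rich members with coding start codons and pseudogene transcripts were named after their values were seen. One member that this rule names is not reported here.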

Additional observations from a re-analysis of the deposited data

How the results depend on the processing

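Members that rose in RNA numbered 29, and 18 by DESeq2, 17 among members without coding exon overlap and 17 to 25 with 1 library left out. Falls numbered 3, and 5 by DESeq2, 0 without overlap and 0 to 6 with 1 library left out. RPF calls numbered 3, and 5 by DESeq2, 5 without the filter, 0 with siControl RPF replicates 2 and 3 summed, 1 without overlap and 0 to 21 with 1 library left out. TE calls numbered 3, and 1 without the filter, 1 with these replicates summed, 1 without overlap and 0 to 17 with 1 library left out. RPF in siIGF2BP3 was below Input for 307 members and above for 30, or 165 and 3 without overlap, and 305 to 308 and 29 to 31 with 1 library left out. With at least 10 CPM the classes held 76, 85 and 34 members, and without overlap 69, 80 and 25. Classes cut on the siIGF2BP3 ratio gave a median RPF change of 0.060 under 0.1 and a median RNA change of -0.046 above 0.5. With 1 siControl library left out of the ratio, the median RPF change under 0.1 was 0.11 to 0.16. The RPF change of ENSG00000256028 was 0.073 and did not pass; it ranged from -0.17 (called, without siIGF2BP3 RPF replicate 1) to 0.19 (not called, without replicate 3), and no other named member reversed with a call. The causes were not tested, save that fewer members enter the settings without overlap and at 10 CPM. DESeq2 gave no adjusted p for 217 members in RNA, 7 of them called by edgeR.

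Same-numbered samples did not deviate together in Input (correlations -0.0015, -0.055 and -0.025). In RPF the correlations were 0.34, 0.24 and 0.07. The labels do not say whether same-numbered samples were prepared together, and this was not tested. With the replicate as a block, 29 members rose and 3 fell in RNA, 4 were called in RPF and 0 in TE. Members with few RPF counts set the limit of depth: 80 of 354 could not be tested in RPF or TE.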

Other observations

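Some lncRNA that missed the level in RNA had counts in the RPF libraries. Of the lncRNA under 5 CPM in siControl Input and not left out by name, 60 had at least 5 CPM in siControl RPF, and these are not members. Their siControl Input level ran from 0 CPM, in 9 of them, to 4.96 CPM, with a median of 0.721 CPM. The highest, ENSG00000270022, had 0.0664 CPM in siControl Input and 686 CPM in RPF. LINC01783 was listed at 0 CPM in siControl Input and had 225 CPM in RPF. TERC had 0.127 CPM in siControl Input and 31.2 CPM in RPF. Whether the fragments counted for these lncRNA came from ribosomes was not tested. Of the 60, 1 was called in RPF after knockdown, a share of 1.67% beside the 1.66% of all genes. It was ENSG00000283907, at 0 CPM in siControl Input, which went from 95.7 to 132 CPM in RPF (log2 fold change 0.48, edgeR adjusted p = 0.012).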
